A study of Mus musculus with 4 samples.

Results

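The GIMAP genes (GTPases of immunity-associated proteins) were examined in DN4 thymocytes, the last CD4-negative CD8-negative stage of T cell development, after an induced deletion of Ikaros. The family was taken as the 8 genes Gimap1, Gimap3, Gimap4, Gimap5, Gimap6, Gimap7, Gimap8 and Gimap9, out of 19938 genes that the array annotation names through a probe set with exactly 1 gene symbol. Each of the 8 had 1 such probe set, so all members were measured and none had to be chosen among several. The members were named by gene symbol and not by their values.

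The cells came from 4 mice carrying floxed Ikzf1 alleles (Ikf/f), Ikzf1 encoding Ikaros, a DNA-binding regulator of lymphocyte development. Mice 129 and 135 (Cre+) were Ikf/f Rosa26-CreERT2+, in which tamoxifen switches on a Cre recombinase made from the broadly active Rosa26 locus. Mice 131 and 137 (Cre-) were Ikf/f without the recombinase, so the presence of the recombinase and the deletion of Ikaros cannot be told apart in this comparison. Every mouse was injected with 50 mg/kg tamoxifen once a day over 4 days, and its DN4 cells were sorted 24 h later for 1 array. Their ages are not given in the labels, and the treatment text of the Cre- samples repeats the Cre+ genotype, so the groups follow the titles and the design text.

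The arrays resembled each other closely, with Pearson's r between 0.994 and 0.997 over probe sets, although probe sets do not count as replicates. Each group held 1 female and 1 male by Xist and Kdm5d, the females being mice 129 and 131. T lineage genes such as Cd3e were at high values in every mouse (13.16 and 13.05 in Cre+ mice, 12.86 and 12.84 in Cre- mice, log2 scale). Of 10 measured markers of immature T cells (12 listed), 9 had higher means in Cre+ mice (median 0.15), and Cd3e, Cd3d, Cd3g and Rag1 rose by 0.25, 0.66, 0.37 and 0.38 in limma's test restricted to probe sets with 1 gene symbol, in which 1.22% of probe sets passed. The targeted gene Ikzf1 was at 12.06 and 11.99 in Cre+ mice and at 12.07 and 12.11 in Cre- mice. Where its probes lie relative to the floxed part was not analysed here, so this value does not check the deletion, which the design text says was seen by western blot.

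GIMAP proteins are small GTP-binding proteins made mainly in lymphocytes, where several of them sit on membranes of the endoplasmic reticulum, Golgi, mitochondria or lysosomes. They are known chiefly for their part in lymphocyte survival. Loss of Gimap5 causes lymphopenia in rats and mice, and loss of Gimap1 in mice leaves few mature T and B cells. Their genes form a single cluster, which in the mouse lies on chromosome 6 with the order Gimap8, Gimap9, Gimap4, Gimap6, Gimap7, Gimap1, Gimap5 and Gimap3, and no other protein-coding gene of the RefSeq table lies among them.

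Upstream sequences are shown for 3 members, the pair with the largest differences between the groups (Gimap7 and Gimap6) and a member with a small difference (Gimap1). Each run is the 250 bases before the gene's start in RefSeq (GRCm38.p6), 5′ to 3′ on the gene's strand, with every GGAA, the core recognised by ETS factors, in capitals on either strand (TTCC where it is reversed). Gimap7 is given for chr6:48718371-48718620 on the plus strand, Gimap6 for chr6:48708245-48708494 on the minus strand and Gimap1 for chr6:48738797-48739046 on the plus strand.
Gimap7: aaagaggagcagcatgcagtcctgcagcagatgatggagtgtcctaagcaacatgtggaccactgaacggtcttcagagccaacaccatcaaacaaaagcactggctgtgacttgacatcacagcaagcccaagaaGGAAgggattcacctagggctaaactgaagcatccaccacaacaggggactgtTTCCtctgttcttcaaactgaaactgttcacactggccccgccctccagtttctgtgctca
Gimap6: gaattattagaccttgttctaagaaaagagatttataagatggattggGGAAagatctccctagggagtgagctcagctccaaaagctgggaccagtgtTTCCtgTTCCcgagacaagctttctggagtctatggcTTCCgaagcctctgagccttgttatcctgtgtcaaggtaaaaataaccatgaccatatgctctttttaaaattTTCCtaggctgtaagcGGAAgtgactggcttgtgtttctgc
Gimap1: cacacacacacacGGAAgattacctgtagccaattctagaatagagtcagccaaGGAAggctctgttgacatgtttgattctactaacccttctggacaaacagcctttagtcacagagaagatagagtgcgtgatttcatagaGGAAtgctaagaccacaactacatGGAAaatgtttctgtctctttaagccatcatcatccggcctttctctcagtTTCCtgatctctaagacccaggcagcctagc
GGAA occurred 2 times in the Gimap7 window, 6 times in that of Gimap6 and 5 times in that of Gimap1, and at least once in all 8 members. Gimap8 has 2 start sites and so 2 windows, and GGAA was absent from 1 of them. It was thus in 8 of the 9 member windows. GGAA is also in 93.4% of the 32851 promoter windows of the same length, so its presence does not set the family apart. The core TGGGAA, which Ikaros is known to bind, was in the windows of 0 of the 8 members on either strand and in 21.6% of all windows. The Ikaros core includes the ETS core. The core bound by KLF factors, CACCC, was in 6 of the 9 member windows, those of 5 members (Gimap8, Gimap9, Gimap4, Gimap5 and Gimap3), and in 52.0% of all windows. It was in none of the 3 windows printed, which belong to members with large and small differences alike. The E box CAGCTG was in 0 of the 8 members and in 13.0% of all windows. These matches describe letters only, and no match in these 250 bases says nothing of binding elsewhere.

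All 8 GIMAP genes had lower values in Cre+ mice than in Cre- mice, and in none of the 8 did the groups overlap. A lower mean in Cre+ mice was found for 54.1% of all genes. The median difference, Cre+ minus Cre-, was -0.27 on the log2 scale, against -0.01 over all 19938 genes. Of all genes, 1.82% had a difference at or below the members' median, and 20.3% had lower values in Cre+ mice without overlap between the groups. The differences ran between -0.08 and -0.50, and no member passed the test across all 35556 probe sets (limma, adjusted p under 0.05), in which 0.00% of probe sets passed. At an unadjusted p under 0.05 there were 4 members, all lower, while 2.74% of all genes were lower and 4.12% higher at that level (6.63% of all probe sets in either direction). The members' median difference was -0.24 without Cre+ mouse 129, -0.33 without Cre+ mouse 135, -0.38 without Cre- mouse 131 and -0.16 without Cre- mouse 137. For groups that do not overlap, leaving out a mouse cannot change the sign of a difference. The gap between the groups was wider than the spread within either group for 3 members (Gimap1, Gimap7 and Gimap8), as for 6.08% of all genes. Only genes without overlap can have such a gap, and 1212 of the 4052 that were lower without overlap had it. The count of 3 among 8 members therefore does not set the family apart from those genes. With 2 mice in each group, an exact permutation test of a single gene cannot give a two-sided p under 0.333.

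**Figure D1:**
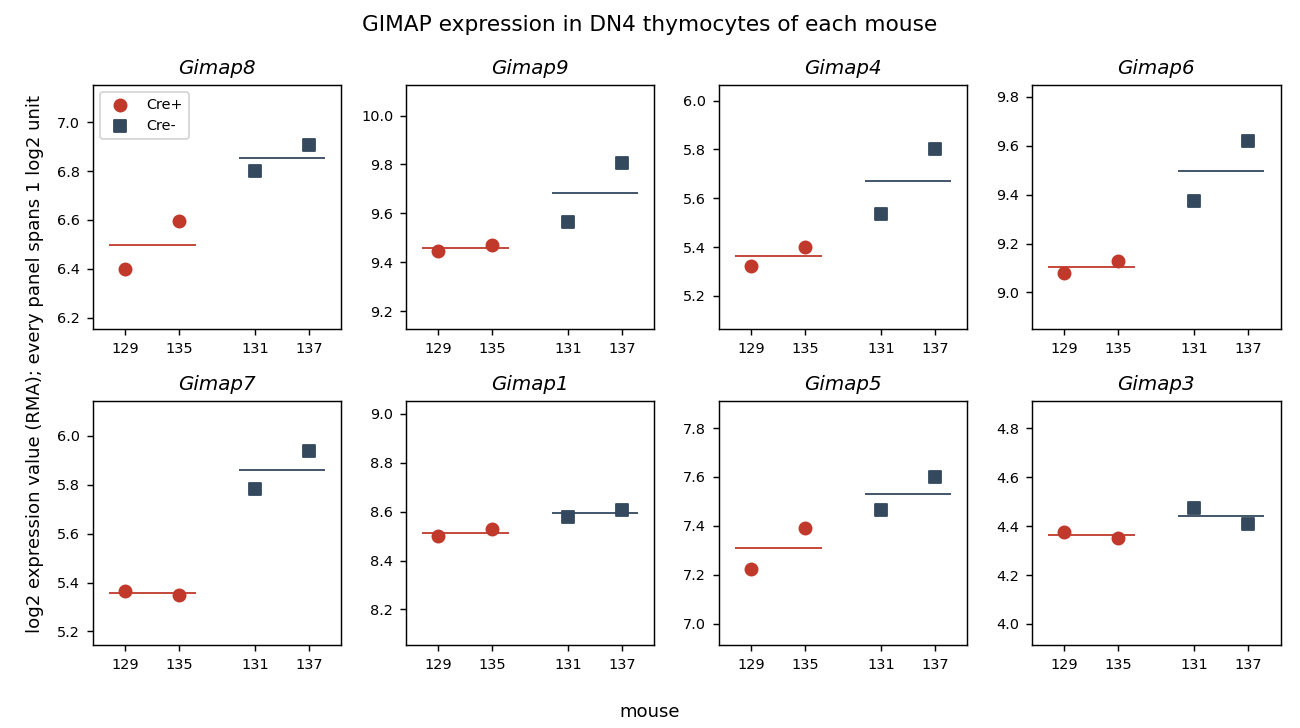
Log2 expression value (y axis, 1 log2 unit in every panel) of each GIMAP gene in each mouse (x axis), with Cre+ mice as red circles, Cre- mice as dark squares and lines at the group means. In every panel both Cre+ values lie below both Cre- values, with the widest gap for Gimap7 and the narrowest for Gimap3.

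The largest difference was that of Gimap7 (probe set 10538135), whose human counterpart is a GTPase that pairs with another molecule to hydrolyse GTP. Gimap7 had values of 5.36 and 5.35 in Cre+ mice 129 and 135, against 5.78 and 5.94 in Cre- mice 131 and 137. The gap of 0.42 between the groups was wider than the spread within either of them, which was 0.02 between the Cre+ mice and 0.15 between the Cre- mice. Gimap7 was 1.42-fold lower in Cre+ cells, a difference of -0.50 (SE 0.10, 95% interval -0.75 to -0.26). Its adjusted p in limma was 0.358 over all probe sets and 0.0409 in a restricted test of the 21789 probe sets that carry 1 gene symbol. In the restricted test 0.285% of probe sets passed as lower, and Gimap7 was the only member to pass. The call was lost without Cre+ mouse 129 (limma, adjusted p = 0.188), without Cre+ mouse 135 (0.158), without Cre- mouse 137 (0.0575) and without an intensity trend (0.0814). The mean of the Gimap7 probe set lay above the 25th percentile of all probe sets (5.41) but below their median. Both Cre+ values were under 5.41 and both Cre- values over it, so the mean passed that level only through the Cre- mice. Whether the Gimap7 probes gave more than background was not examined.

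Gimap6 (probe set 10544583), whose protein binds a member of the GABARAP family and acts in autophagy, was at 9.08 and 9.13 in Cre+ mice and at 9.37 and 9.62 in Cre- mice. Both Cre+ mice were lower, and the gap of 0.24 was close to the spread of 0.25 between the Cre- mice. The difference was -0.39 (SE 0.11, 1.31-fold lower), and it passed neither the test over all probe sets (limma, adjusted p = 0.544) nor the restricted test (0.140). With the sex of the mouse as a block, the restricted test called Gimap6 (limma, adjusted p = 0.0486) as well as Gimap7 (0.00743). That fit called more probe sets in general, 565 of 21789 against 266 without the block.

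Gimap8 (probe set 10538115) encodes an unusually long member with repeated GTPase domains. It was at 6.40 and 6.60 in Cre+ mice and at 6.80 and 6.91 in Cre- mice. The Cre+ mice differed from each other more than the Cre- mice did, and the gap of 0.204 between the groups slightly exceeded the 0.196 between the Cre+ mice. The difference was -0.36 (SE 0.12), with limma's adjusted p = 0.660 over all probe sets and 0.239 in the restricted test.

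Gimap4 (probe set 10538126), which in T cells has been tied to the pace of cell death, was at 5.32 and 5.40 in Cre+ mice and at 5.54 and 5.80 in Cre- mice. Both Cre+ values lay under the 25th percentile of all probe sets (5.41), and both Cre- values above it. The 2 Cre- mice were 0.27 apart, more than the gap of 0.14 between the groups. Its difference of -0.31 (SE 0.12) had an unadjusted p = 0.0494 in limma and an adjusted p of 0.752. The difference was -0.17 without mouse 137 and -0.44 without mouse 131. Each of these fits left a single Cre- mouse, so the values are sizes only.

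Gimap5 and Gimap3 encode closely related proteins, so that their probes may share some signal, which was not tested. Gimap5 (probe set 10538142), the survival gene of naive T cells, was at 7.22 and 7.39 in Cre+ mice and at 7.46 and 7.60 in Cre- mice. The groups lay 0.07 apart, less than the spread of 0.17 between the Cre+ mice, and the difference was -0.22 (SE 0.12, limma adjusted p = 0.880), or -0.14 without mouse 129. Gimap3 (probe set 10544588), known in mice for an effect on mitochondrial DNA, was at 4.38 and 4.35 in Cre+ mice and at 4.48 and 4.41 in Cre- mice. Its difference was -0.08 (SE 0.06), or -0.04 without mouse 131, and its probe set was the only member with a mean below the 25th percentile of all probe sets.

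Gimap9 (probe set 10538123) was at 9.45 and 9.47 in Cre+ mice and at 9.56 and 9.81 in Cre- mice. The Cre+ mice were nearly equal while the Cre- mice were 0.24 apart, and the difference of -0.23 (SE 0.10, limma adjusted p = 0.819) was -0.11 without mouse 137 and -0.35 without mouse 131. Gimap1 (probe set 10538138), needed for mature B and T cells in mice, was at 8.50 and 8.53 in Cre+ mice and at 8.58 and 8.61 in Cre- mice. Its 4 values lay within 0.11 of each other. The difference of -0.08 (SE 0.08) had a 95% interval of -0.29 to 0.13, which holds both no difference and the differences of Gimap5 and Gimap9.

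Most of the 8 genes also shared the order of the mice within the groups. In 6 of them (Gimap1, Gimap4, Gimap5, Gimap6, Gimap8 and Gimap9) the values ran in the order 129, 135, 131 and 137 from the lowest to the highest mouse. That order was found in 6.28% of all genes, a share that also counts the separation of the groups. Among the 4052 genes lower in Cre+ mice without overlap, 1252 had it. Mouse 137 was highest for 7 members, the exception being Gimap3, and mouse 129 was lowest for 6. Relative to each gene's own mean, the average of the members was -0.17 and -0.10 in Cre+ mice 129 and 135, against 0.07 and 0.21 in Cre- mice 131 and 137. The members thus also varied within the Cre- group, by a median of 0.145, where all genes had a median of 0.0930. Within the Cre+ group they varied by a median of 0.0420, against 0.0740 for all genes.

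The sex-matched pairs add sizes only, since groups that do not overlap must have the same direction in each pair. All 8 members were lower in the Cre+ mouse of the female pair (129 against 131, median -0.23) and of the male pair (135 against 137, median -0.32). Of all genes, 29.8% were lower in both pairs. Gimap8, Gimap3, Gimap5 and Gimap1 differed more in the female pair (-0.40, -0.10, -0.24 and -0.081) than in the male pair (-0.31, -0.06, -0.21 and -0.078). Gimap4, Gimap6, Gimap7 and Gimap9 differed more in the male pair (-0.40, -0.49, -0.59 and -0.33) than in the female pair (-0.21, -0.29, -0.42 and -0.12). With 1 mouse of each sex and group, a difference between the pairs could not be tested.

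The genes adjoining the cluster had other values. The nearest protein-coding neighbours beyond Gimap3 are Tmem176b and Tmem176a, a pair encoding membrane-spanning proteins of intracellular compartments. Tmem176b was at 10.49 and 10.28 in Cre+ mice and at 9.04 and 8.97 in Cre- mice, a difference of 1.38 (SE 0.10). Tmem176a was at 9.28 and 9.11 in Cre+ mice and at 7.81 and 7.76 in Cre- mice, a difference of 1.41 (SE 0.10). Both rose in the restricted test (limma, adjusted p = 0.000590 and 0.000694), in which 1.22% of probe sets passed in either direction, and missed the threshold over all probe sets. On the other side, the nearest gene Zfp775, named for its position, differed by -0.05 (SE 0.13).

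**Figure D2:**
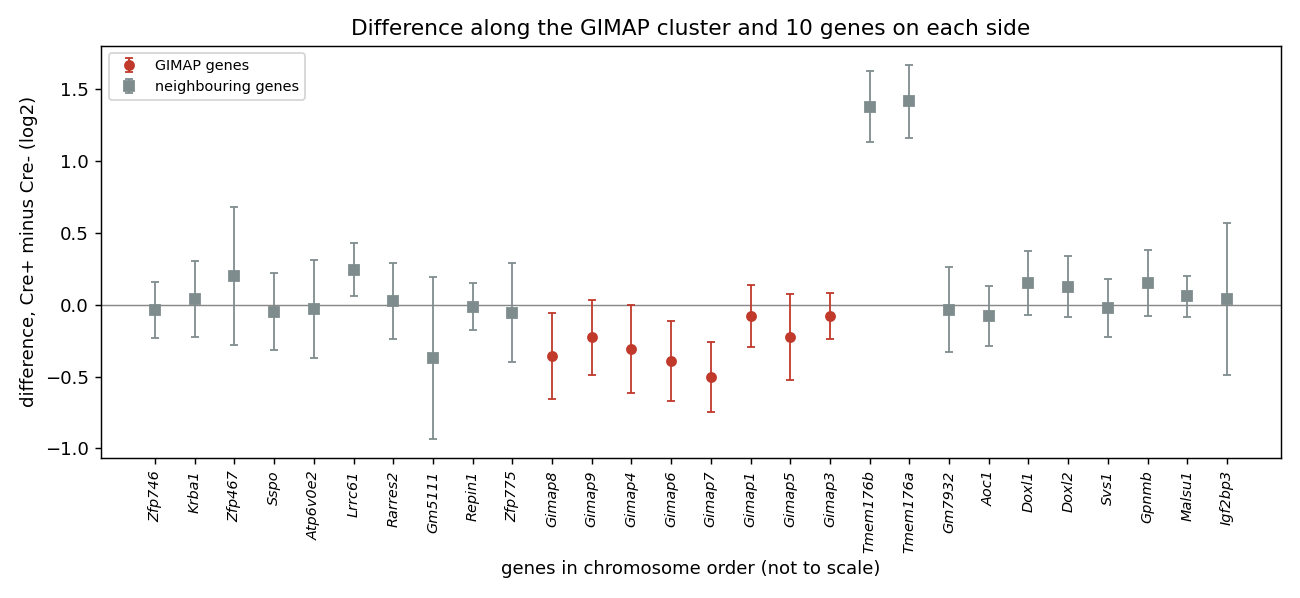
Difference in log2 expression, Cre+ minus Cre- (y axis, bars are 95% intervals from limma), for the 8 GIMAP genes (red circles) and 10 protein-coding genes on each side (grey squares), in chromosome order and not to scale (x axis). The 8 GIMAP genes lie below 0, the adjoining Tmem176b and Tmem176a lie at 1.38 and 1.41, and 17 of the other 18 neighbours have intervals that include 0.

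Of the 20 neighbours, 10 on each side and all measured, 11 had higher and 9 lower means in Cre+ mice, with a median of 0.03. Groups did not overlap for 7 with higher and 1 with lower values, where 16.1% and 20.3% of all genes did so. The third named neighbour, Lrrc61, which encodes a leucine-rich repeat protein, differed by 0.24 (SE 0.07) and passed neither test (limma, adjusted p = 0.253 in the restricted test).

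Genes of T cell maturation and exit, which like the GIMAP genes are higher in mature T cells, had lower means in 11 of 14 measured cases (19 listed), with a median of -0.18. The Ms4a4b gene, encoding a membrane protein of T cells, was at 5.52 and 5.39 in Cre+ mice and at 6.02 in both Cre- mice. It fell by 0.56 (SE 0.09) in the restricted test (limma, adjusted p = 0.0254), in which 0.285% of probe sets passed as lower, and was the only member of that list to pass. Its relative Ms4a6b differed by -0.28 (SE 0.08) and the integrin gene Itgb7 by -0.36 (SE 0.12), with neither passing. Groups did not overlap for 9 members with lower and 3 with higher values, as for 20.3% and 16.1% of all genes.

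The interferon-inducible GTPases, another family of immune GTPases, had higher means in Cre+ mice for 8 of 10 measured members (17 listed), with a median of 0.32. Irgm1, which acts in defence against intracellular microbes, was at 10.01 and 9.68 in Cre+ mice and at 9.20 and 9.27 in Cre- mice. It rose by 0.61 (SE 0.12) in the restricted test (limma, adjusted p = 0.0453). Mx2 differed by 0.76 (SE 0.19) and the guanylate-binding protein gene Gbp8 by -0.37 (SE 0.09) without passing. The mean over the list was highest in mouse 129, at 8.38, against 7.92 in Cre+ mouse 135 and 7.75 and 7.68 in Cre- mice 131 and 137. Not every member followed that mean, as Gbp8 was lowest in mouse 129 (9.40). Iigp1 had the largest difference of the list, 1.78 (SE 0.55), without passing. It was at 8.22 and 6.53 in Cre+ mice 129 and 135 and at 5.70 and 5.48 in Cre- mice 131 and 137.

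**Figure D3:**
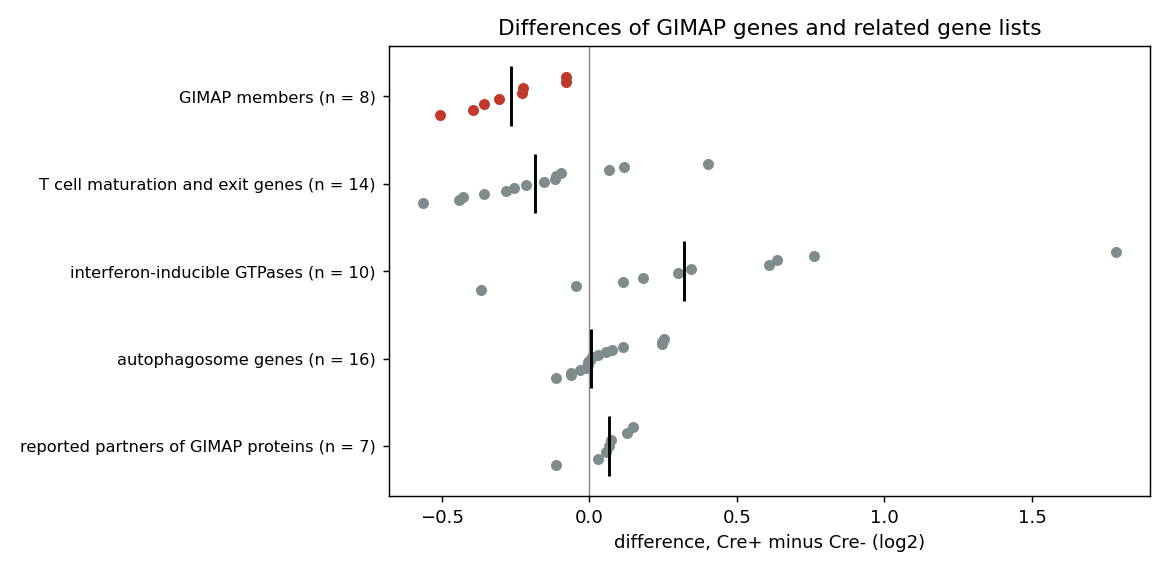
Difference in log2 expression, Cre+ minus Cre- (x axis), of each measured gene in the GIMAP family (red) and in 4 related lists (grey), with black lines at the medians. The GIMAP genes all lie left of 0 with a median of -0.27, and the interferon-inducible GTPases have a median of 0.32.

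Genes whose products are reported to work with GIMAP proteins had differences on both sides of 0. Of 7 measured reported partners (8 listed), 6 had higher means, with a median of 0.07, and 0 passed either test or had an unadjusted p under 0.05 in limma. The survival gene Mcl1 differed by 0.13 (SE 0.08), Bcl2, the founding member of that family, by -0.11 (SE 0.10), and Gabarapl2, which encodes the partner of Gimap6 in autophagy, by 0.06 (SE 0.04). Of 16 autophagosome genes, all measured, 9 had higher means, with a median of 0.01, 0 passed either test, and 2 had an unadjusted p under 0.05, both higher, as 4.12% of all genes were at that level. Those were the lysosomal membrane gene Lamp2, with 0.25 (SE 0.05), and Gabarapl1, with 0.25 (SE 0.08). Map1lc3a, an LC3 gene, differed by 0.25 (SE 0.12).

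The 5 genes most like the family average were Plekha1, Sec11c, Timm10, Trp53i13 and Nol10, out of 10405 other genes above the median level. Likeness was the Euclidean distance between profiles over the 4 arrays after removal of each gene's mean, and it ranged from 0.0151 for Plekha1 to 0.0300 for Nol10. Plekha1 was at 7.21 and 7.29 in Cre+ mice and at 7.47 and 7.60 in Cre- mice. With 4 arrays, such closeness describes these libraries only. The members themselves lay between 0.0878 (Gimap5) and 0.250 (Gimap3) from their own average. As the 5 genes were picked as the nearest of 10405, these distances cannot be set against theirs. The distance also grows where a member's difference is larger or smaller than the average, even in the same direction.

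Markers of other cells that the sort could hold were read beside these values. In sorted populations, fewer cells of a type and less RNA per cell cannot be told apart. Of 5 measured mature T cell markers, 4 (Klf2, S1pr1, Ccr7 and Il7r) had lower values in Cre+ mice without overlap, as 20.3% of all genes had. The fifth, Cd6, was higher. Those 4 are also counted among the maturation and exit genes above, so they are not a separate observation. The mean level of the 5 markers was 8.33 and 8.16 in Cre+ mice and 8.38 and 8.37 in Cre- mice. B cell markers, with 6 of 7 means lower in Cre+ mice, were at a mean level of 6.10 and 6.16 in Cre+ mice and of 6.15 and 6.44 in Cre- mice. Mouse 137, highest for 7 GIMAP genes, had the highest mean level for the B cell, the myeloid and dendritic, and the double-positive markers. It was not highest for the other marker lists. Single markers of these lists stood out more in mouse 137. H2-Aa was at 7.73 there, against 6.51, 6.67 and 6.59 in mice 129, 135 and 131. Cd74 was at 8.28, against 7.02, 7.45 and 7.14, and Ms4a1 at 5.77, against 4.76, 5.13 and 4.95. Others went another way, with H2-Ab1 highest in mouse 135 (9.07) and Cd79b and Lyz2 lowest in mouse 137 (9.96 and 6.29). Natural killer markers were lower in 5 of 10 cases (mean level 6.38 and 6.39 in Cre+ mice, 6.48 and 6.45 in Cre- mice), myeloid and dendritic markers in 5 of 10 (6.59 and 6.74 in Cre+ mice, 6.67 and 6.84 in Cre- mice) and endothelial markers in 4 of 6 (6.53 and 6.58 in Cre+ mice, 6.62 and 6.58 in Cre- mice). Double-positive markers were lower in 3 of 6 cases (9.89 and 9.97 in Cre+ mice, 9.91 and 10.12 in Cre- mice), and gamma-delta T markers in 4 of 6 (6.86 and 6.79 in Cre+ mice, 6.92 and 6.84 in Cre- mice). Markers of the DN1 to DN3 stages were lower in 7 of 8 cases (7.01 and 6.97 in Cre+ mice, 7.19 and 7.05 in Cre- mice), and thymic epithelial markers in 4 of 5 (6.72 and 6.72 in Cre+ mice, 6.88 and 6.77 in Cre- mice). Single markers moved more than these means. In the restricted test the killer cell gene Nkg7 fell by 1.04, the myeloid receptor gene Clec12a fell by 1.08 and the kinase gene Blk fell by 0.51, while the lysozyme gene Lyz2 rose by 1.04 (limma, adjusted p = 0.00114, 0.00339, 0.0463 and 0.0206). Without passing, Cd8a differed by -0.61, Cd4 by 0.54, Epcam by -0.48 and Cd44, of the DN1 to DN3 list, by -0.42. RMA gives no values of 0, so absence of a marker cannot be read from them. Without mouse 137 the median difference of the GIMAP members was -0.16, a value that does not tell which cells the RNA came from. The part of other cells in the GIMAP differences was not tested.

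**Figure D4:**
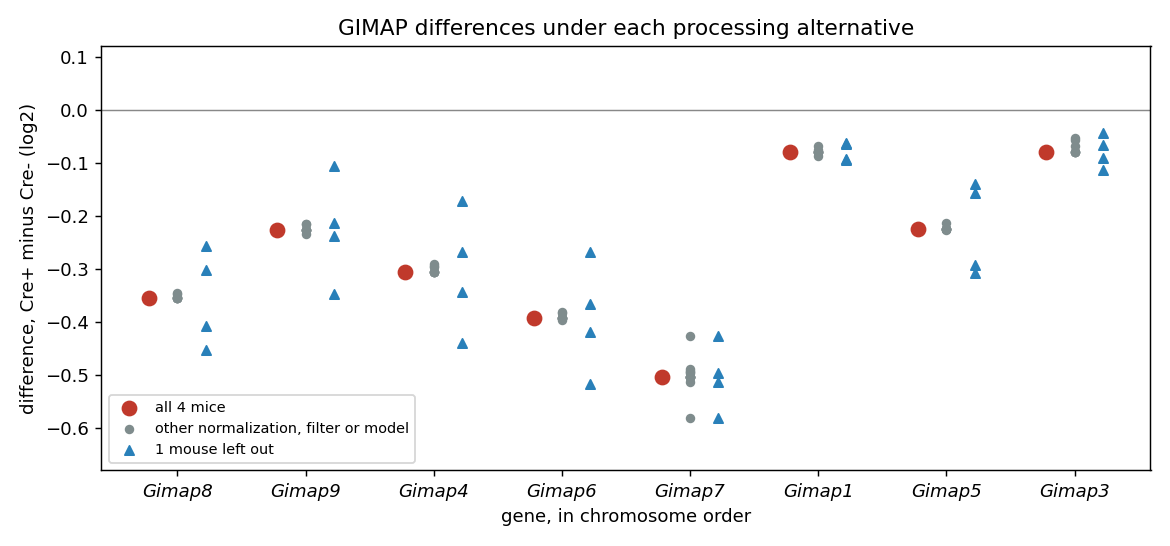
Difference in log2 expression, Cre+ minus Cre- (y axis), of each GIMAP gene (x axis) with all 4 mice (red circles), under other normalizations, filters and models (grey dots) and with 1 mouse left out (blue triangles). The grey dots of Gimap7 also hold restricted tests with 1 mouse left out. All values lie below 0, and for groups that do not overlap leaving out a mouse could not change that. Leaving out a mouse moves the values more than the other normalizations, filters and models do.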

How the data were processed

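Total RNA from DN4 thymocytes of 4 mice was labelled in a two-cycle assay and hybridised to Affymetrix mouse gene arrays, 1 per mouse, per the labels' protocols. The authors deposited 1 log2 value per probe set and array. The submitters' processing notes name RMA, and a log2 scale follows from the range of 3.14 to 14.4. The version of RMA and the build behind the probe sets were not stated, and no normalization was added.

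With limma 3.58.1 (R 4.3.3), lmFit and eBayes with a trend on intensity were run on all 35556 probe sets, followed by Benjamini-Hochberg adjustment at a threshold of 0.05. The restricted test used only probe sets with exactly 1 gene symbol. Residual degrees of freedom numbered 2 and prior ones 2.99, and the number of arrays limits the precision. The fit was tested on simulated data. A gene with several probe sets was given by that of highest mean.

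The members, lists and tests were chosen with earlier results of these data known. All members were named, with the 3 genes of smallest p in each related list and the 5 genes nearest the family average. Iigp1 was named in addition, for the size of its difference. Alternatives changed the normalization, filter, model, sex block and mice used. Promoter sequences come from RefSeq (GRCm38.p6) and matched all 8 members.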

Additional observations from a re-analysis of the deposited data

How the results depend on the processing

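The mouse numbers pair no Cre+ mouse with a Cre- mouse, so the only block fitted was the sex of the mouse, with which 0 members passed over all probe sets. All members that an alternative tested were lower in Cre+ cells under all 14 alternatives set at the start. The filter at the 25th percentile left 7 members, Gimap4 and Gimap7 only through their Cre- values, and that at the median left 4. As the groups do not overlap, only another normalization could have changed a sign. The number of members called was 0 with all probe sets and 1 (Gimap7) in the restricted test. In restricted tests chosen after seeing the data it was 2 with sex as a block, 0 without an intensity trend, and between 0 and 3 when 1 mouse was left out, the 3 arising without mouse 131. The median difference lay between -0.38 (without mouse 131) and -0.16 (without mouse 137). Over all probe sets 0 passed with limma, with 2356 at an unadjusted p under 0.05. The count of calls was 266 in the restricted test, 10 with arrays centred on their medians, 25 above the 25th percentile and 80 above the median. The restricted and filtered tests change both the number of probe sets and the spread that limma pools, and the cause was not tested. The mean over several probe sets per gene gave no value, since each member has 1.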
